A study of Mus musculus with 4 samples.

Results

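The axon guidance ligands and receptors are the genes of the semaphorin, ephrin, Slit and netrin ligand families and of the plexin, neuropilin, Eph, Robo, Dcc and Unc5 receptor families. They were taken by gene name from the lists of m6A peaks of the mouse spinal cord, without use of any measured value. The names gave 218 of the 33556 peaks in the list from mice with chronic constriction injury (CCI), in 63 of 12408 genes, and 219 of the 34406 peaks in the sham list, in 64 of 12907 genes. Of the 71 RefSeq symbols that fit the names, 7 had no peak in either list, namely *Efna4*, *Epha1*, *Epha3*, *Ntn3*, *Ntn5*, *Robo3* and *Plxna4os1*, which is named as an antisense transcript. *Unc5cl* fits by name but is not a netrin receptor, and it was kept and is pointed out where it matters.

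The tissue was spinal cord of C57BL/6J mice, 6 to 8 weeks old, taken on day 7 after the operation. CCI usually means ligatures tied loosely around the sciatic nerve, and sham surgery leaves the nerve without a ligature. The paper describes its spinal nerve ligation operation but gives no procedure for CCI. RNA fragments captured with an antibody against m6A (the IP library) were sequenced beside the fragments before capture (the input library), with 1 IP and 1 input library per group, 4 libraries in all. Differences between the groups therefore had no replicate check and are given without a p-value, and the number of mice behind a library is not given in the sources used here. The authors called 1 list of peaks per group, and each peak carries a fold enrichment, the ratio of IP over input. Coordinates follow the authors' tables, in the build GRCm38 of the submitters' processing notes. Read counts are not part of the tables, and the depth of the libraries is unknown.

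Axon guidance molecules were first known for steering growing axons, which turn toward or away from a source of ligand. Semaphorins bind plexins, the class 3 semaphorins through a neuropilin co-receptor. Ephrins are membrane-bound ligands of the Eph receptor tyrosine kinases, Slits bind Robo receptors, and netrins bind Dcc and the Unc5 receptors. In the adult cord many of them are still expressed by neurons, glia and vessels, where they act on synapses, myelin and the endothelium. m6A is a methyl mark on adenosine within mRNA that is known to lie mostly near the stop codon and in the 3′-UTR, and it can alter the stability and translation of the transcript. MeRIP-seq also reads m6Am, a related mark that can occupy the first transcribed base next to the cap when that base is an A.

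Peaks were found for all 7 neuron genes, all 4 astrocyte, all 4 oligodendrocyte and all 4 microglia genes, and all 4 Hox genes of spinal position that were checked, in both lists. Of 5 dorsal root ganglion genes, 2 had a peak in CCI and 4 in sham. *Scn10a* and *Mrgprd*, a sodium channel and a receptor of pain-sensing ganglion neurons, had 2 peaks and 1 peak in sham and none in CCI. *Prph*, a neuronal intermediate filament, had 2 peaks in CCI and 5 in sham, and *Isl2*, a homeobox gene, had 2 and 1. *Calca* had none in either list, and the part of this difference in the results below was not tested. These are peak calls and not expression levels. In such bulk tissue, fewer cells of a type and less RNA per cell cannot be told apart.

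The guidance transcripts carried more peaks per gene than the lists as a whole. They had 3.46 peaks per gene in CCI and 3.42 in sham, against 2.7 and 2.67 over all genes, and their median of 3 peaks per gene stood against 2. Fold enrichment was close to the rest. The median was 6.42 in CCI and 5.81 in sham, against 5.72 and 5.7 over all peaks, with a range of 1.19 to 569 in CCI and 1.26 to 680 in sham. *Plxna2*, a plexin for class 3 and class 6 semaphorins, had the most, with 10 peaks in CCI and 9 in sham. *Ephb1*, a receptor for B-class ephrins, had 9 and 8, *Epha10*, an Eph family member without an active kinase, had 8 and 9, and *Plxna1*, a plexin that signals for class 3 semaphorins, had 7 and 8. At the other end, 7 genes had a single peak in each list.

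In most genes the number of peaks differed between the lists by less than 2. The number was the same in 31 of the 64 genes, higher in CCI in 16 and higher in sham in 17. These counts were not set beside the same counts over all genes. A difference of 2 peaks or more was seen in 5 genes. The largest was 3, in *Sema4d*, a transmembrane semaphorin that binds plexin B1, with 6 peaks in CCI and 3 in sham. *Efna5*, a lipid-anchored ephrin, had 3 and 1, *Sema4a* had 2 and 4, *Sema5a* had 4 and 6, and *Plxna4* had 6 and 8.

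**Figure D1:**
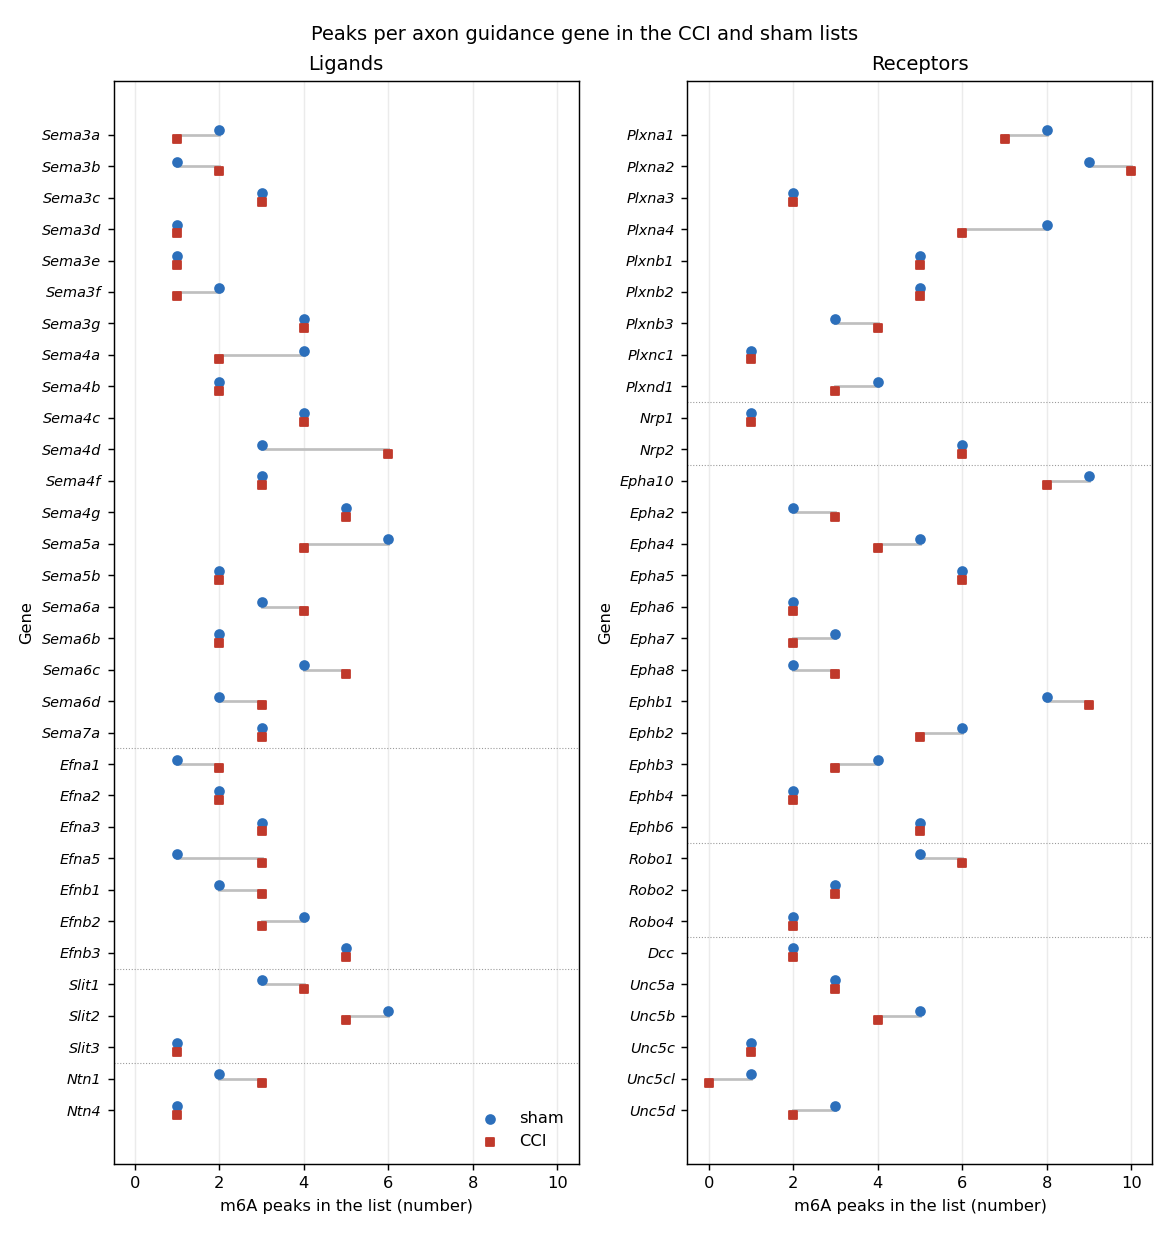
Number of m6A peaks (horizontal axis) in the sham list (circles) and the CCI list (squares) for each of the 64 genes (vertical axis), ligands left and receptors right, with dotted lines between families. The 2 marks lie at the same number in 31 genes, and the widest gap is 3 peaks, in *Sema4d*.

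Counted peak by peak, annotation was more often to the 3′-UTR and less often to an exon than for peaks in general. The exon class holds every peak annotated as an exon and not as a UTR, and it was not limited to coding exons. In CCI 125 of 218 (57.3%, 95% Wilson interval 50.7 to 63.7%) were annotated to the 3′-UTR, 60 (27.5%, 22.0 to 33.8%) to an exon and 33 (15.1%, 11.0 to 20.5%) to the 5′-UTR. In sham the shares were 59.4% (52.7 to 65.7%), 24.7% (19.4 to 30.8%) and 16.0% (11.7 to 21.4%). Over all peaks they were 49.8%, 35.5% and 14.7% in CCI, and 48.9%, 35.1% and 16.1% in sham. The intervals cover counting error only, and peaks of the same transcript are not independent. With each gene and region counted once, the 3′-UTR share was 50.8% (42.0 to 59.6%) in CCI and 51.2% (42.4 to 60.0%) in sham. Over all genes it was 47.5% and 46.6%, so part of the gap came from genes with several 3′-UTR peaks. The exon share was then 26.7% (19.6 to 35.2%) and 26.4% (19.4 to 34.9%), against 32.7% and 32.1%. The shares over all genes lay within these intervals. A 3′-UTR peak was found in either list in 63 of the 64 genes and in both lists in 60, and a 5′-UTR peak in 31 and 23.

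The families differed in where their peaks lay. Of the semaphorin peaks, 44 of 58 in CCI and 41 of 57 in sham were in the 3′-UTR. Plexins had 18 of 43 peaks of the CCI list and 15 of 45 of the sham list in an exon, beside 35.5% and 35.1% of all peaks. The plexin share was thus above that of all peaks in CCI and below it in sham. Robo receptors had 6 of 11 and 6 of 10 peaks in an exon, and Dcc and the Unc5 receptors, with *Unc5cl* counted, had 6 of 12 and 7 of 15. Peaks of the 5′-UTR were the strongest. Their median fold enrichment was 11.5 in CCI and 11.8 in sham, against 6.82 and 5.56 in the 3′-UTR and 3.75 and 3.7 in exons, and over all peaks the order of the regions was the same, with 8.51 and 8.21 in the 5′-UTR.

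**Figure D2:**
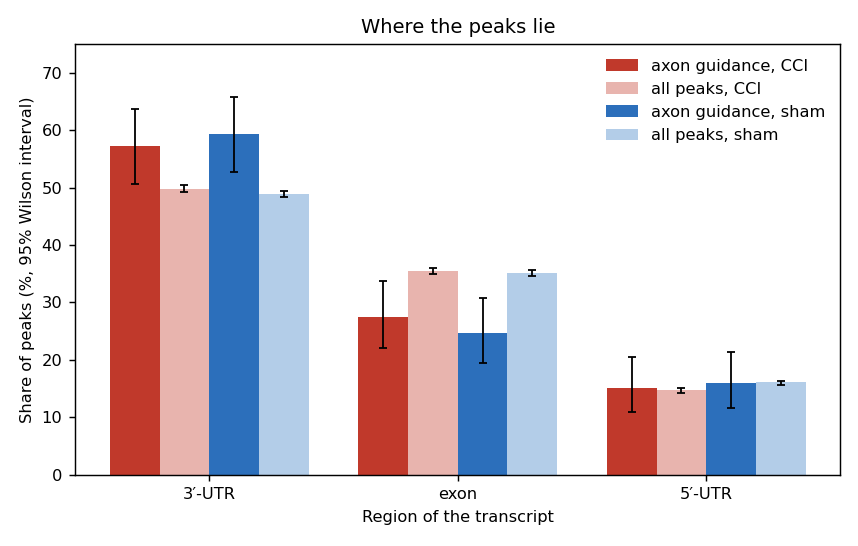
Share of peaks in percent (vertical axis) in each transcript region (horizontal axis) for the axon guidance genes and for all peaks of both lists, with 95% Wilson intervals that cover counting error only. The dark bars of the axon guidance genes stand above the pale bars of all peaks in the 3′-UTR (57.3% against 49.8% in CCI) and below them in exons.

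For 6 genes a peak of both lists covered at least 25 of the first 50 transcribed bases of a RefSeq start, out of 60 genes with a start in the RefSeq table of GRCm38.p6. The first 30 bases of these are shown because they are the sequence under 5′-UTR peaks described below. *Sema4c* and *Sema6c* each have another RefSeq start farther upstream, where no peak of either list covered the first 50 bases. The peaks at their printed starts reach upstream of those starts. The capital marks the first transcribed base.
Sema4c, chr1:36557528-36557557, minus strand: Agctccgccgcccggtccctctctggagcg
Efna3, chr3:89322910-89322939, minus strand: Gtgactaagattgggggctggcagcggcgg
Sema6c, chr3:95164339-95164368, plus strand: Ggccggcacatgggtgagggggtaccccct
Ephb1, chr9:102354664-102354693, minus strand: Cagtctggcccgctctgtcctcccgtaggc
Unc5b, chr10:60831552-60831581, minus strand: Attgtggccggcggcagggcgggcgagggc
Ephb3, chr16:21204795-21204824, plus strand: Agcggcgcagccagataccggctcctaccc

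The printed starts of *Sema4c*, *Unc5b* and *Ephb3* were an A, and 34.4% of all 32851 RefSeq starts and 34.2% of the 76 starts of the axon guidance genes were. The common cores of the m6A consensus are GGAC and AGAC and, less often, GAAC and also AAAC, of which only 1 can match at a position. None of the 6 printed stretches held one of these cores. Forms of the consensus that begin with T were not counted, and the *Efna3* stretch holds TGACT. Over the first 50 bases, 1 of the 6 starts held a core on the transcribed strand, that of *Ephb3*. Such a core was present on the transcribed strand in 53.9% of the starts of the axon guidance genes and in 50.8% of all starts, and on the other strand in 44.7% and 51.0%. The match of letters is a description of these windows, and the peaks reach beyond them.

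Most peaks had a partner in the other list, that is, a peak sharing at least 1 bp of exonic sequence. In CCI 35 of the 218 peaks had none (16.1%, 11.8 to 21.5%), against 12.3% of all CCI peaks. In sham 30 of the 219 had none (13.7%, 9.77 to 18.9%), against 16.1% of all sham peaks. Both background shares lay within these intervals. The peaks of 1 list were weak, with a median fold enrichment of 2.56 in CCI and 3.19 in sham, against 6.88 and 6.31 for the peaks with a partner.

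Among the stronger peaks of the CCI list alone was a 5′-UTR peak of *Epha5*, an Eph receptor of the A class, at 18.8-fold. A 3′-UTR peak of *Efna5*, one of its ligands, reached 16.7-fold. In the sham list alone, a 5′-UTR peak of *Plxna4* reached 24.4-fold and one of *Epha7*, another A-class Eph receptor, 17.4-fold. As a group the peaks of 1 list had the weaker statistics, with a median log10 false discovery rate of -3.58 in CCI and -3.39 in sham, against -19.3 and -23.4 for peaks with a partner. *Unc5cl* was the 1 gene with a peak in 1 list only, an 11.6-fold sham peak with a log10 false discovery rate of -1.84.

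Where a CCI peak and a sham peak were each other's best overlap they were taken as a pair, and the log2 ratio of their fold enrichments, CCI over sham, was computed. A value above 0 is thus a higher ratio of IP over input in CCI, and a difference in the IP and a difference in the input cannot be told apart. There were 181 such pairs in 63 genes, of 27380 in all, and in 17 of the 181 less than 50% of 1 of the peaks was shared. Their median log2 ratio was 0.05, with a middle range from -0.32 to 0.5, and the median over all pairs was 0.03, with a middle range from -0.37 to 0.43. The pairs divided into 82 lower in CCI, 98 higher and 1 equal. The share that was lower, 45.3% (38.2 to 52.6%), stood beside 47.8% of all pairs.

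A difference of at least 2-fold was about as frequent in the axon guidance transcripts as elsewhere. It was seen as a higher value in CCI in 15 pairs (8.29%, 5.09 to 13.2%), against 8.59% of all pairs, and as a lower value in 8 pairs (4.42%, 2.26 to 8.48%), against 7.25% of all pairs. By region, 9 of the 28 pairs in the 5′-UTR passed 2-fold (32.1%), against 11 of the 108 in the 3′-UTR (10.2%) and 3 of the 45 in exons (6.67%). Over all pairs the shares were 23.5%, 14.9% and 13.8% in the same order of regions.

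**Figure D3:**
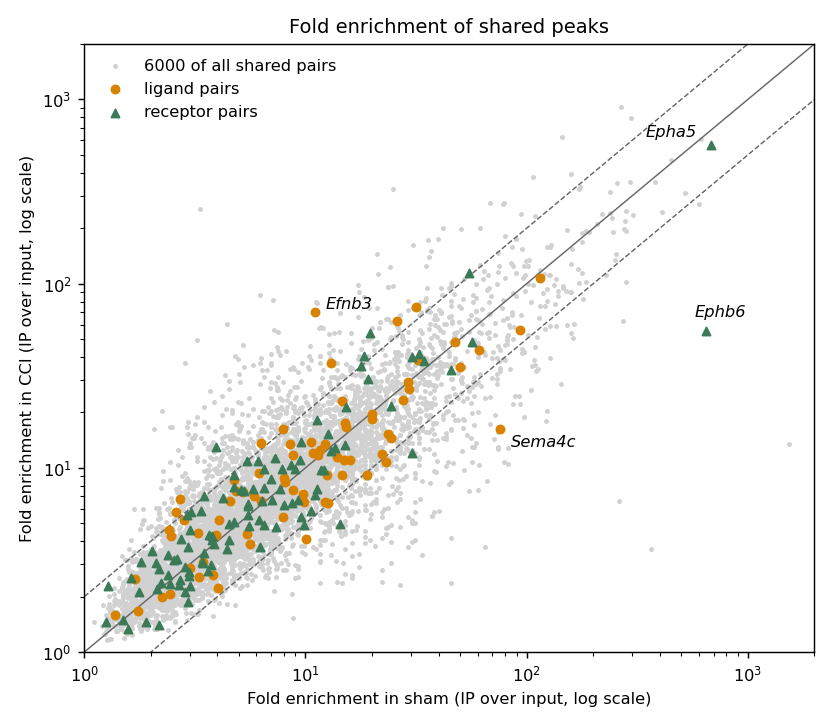
Fold enrichment (IP over input) of paired peaks in sham (horizontal axis) and CCI (vertical axis), both on log scales. Grey points are 6000 of the 27380 pairs, circles and triangles are the 181 pairs of ligand and receptor genes, the solid line marks equality and the dashed lines a 2-fold difference, and *Ephb6* (55.3 against 644) and *Efnb3* (69.8 against 11.0) lie farthest outside.

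Among the ligands, semaphorins had 47 pairs, 20 of them lower and 27 higher in CCI, with a median log2 ratio of 0.11. The pair with the largest fall among them was in the 5′-UTR of *Sema4c*, a transmembrane semaphorin that signals through plexin B2, at chr1:36557533-36558289 in the CCI list, which also touches the start printed above. Its fold enrichment was 16.3 in CCI and 75.5 in sham, a log2 ratio of -2.21. A second *Sema4c* pair of the 5′-UTR that overlapped it read 15.2 and 23.5, and of the pairs in its 3′-UTR one read 6.49 and 12.2 and the other 48.0 and 47.6. The difference in *Sema4c* thus lay in its 5′-UTR and in part of its 3′-UTR, while its strongest 3′-UTR peak was equal within 0.01 on the log2 scale.

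The peak over the printed start of *Sema6c*, a class 6 transmembrane semaphorin, moved the other way. It read 37.0 in CCI and 13.1 in sham, a log2 ratio of 1.5, at chr3:95163521-95164455. The strongest semaphorin peak was in the 3′-UTR of the same gene and read 108 and 115. High enrichment and a high ratio were therefore found at different ends of the *Sema6c* transcript.

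Of the secreted class 3 semaphorins, which bind neuropilins, *Sema3g* and *Sema3c* passed 2-fold. A 3′-UTR peak of *Sema3g*, known from the vessel wall, read 63.1 in CCI and 26.0 in sham (log2 ratio 1.28), while the peaks on either side of it read 35.3 and 50.2 and 6.43 and 12.7. The last of these, at -0.98, was the pair closest to the threshold among those that did not pass it. All 3 pairs of *Sema3c* were higher in CCI, at 17.5 and 15.1, at 4.27 and 2.47 and at 13.6 and 6.31. *Sema3a*, the best known repellent of the class, had 1 pair in its 3′-UTR at 26.9 and 29.5.

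In the 3′-UTR of *Sema4a* a pair read 6.82 and 2.71 (log2 ratio 1.33), and in that of *Sema5a*, a semaphorin with thrombospondin repeats, 5.75 and 2.59 (1.15). The *Sema4a* peaks were 747 bp long in CCI and 419 bp in sham and shared 52.1% of the longer, so they cover different stretches. The sham list held a further 3′-UTR peak of *Sema4a*, at 13.9. It shared bases with a CCI peak but was not in a pair, so the ratio of 1.33 leaves it out and depends on which sham peak was paired. The *Sema5a* pair started from a low level. *Sema4g*, the semaphorin with the most pairs, had log2 ratios from -0.27 to 0.42 in its 5 pairs, the lowest of them from peaks that shared 1 bp. Its strongest read 19.7 and 19.9.

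The ephrins had 16 pairs, 10 lower and 6 higher, with a median log2 ratio of -0.2. Against that stood the largest rise of all the genes, in the 5′-UTR of *Efnb3*, a transmembrane ephrin known as a midline barrier for corticospinal axons. At chr11:69559818-69560205, which reaches the annotated 5′ end of the gene, its fold enrichment was 69.8 in CCI and 11.0 in sham, a log2 ratio of 2.67 that was at percentile 99.6 of all pairs. The other 4 pairs of *Efnb3* differed by 0.2 or less on the log2 scale, the strongest of them at 8.38 and 8.11. The log10 false discovery rate of the 5′-UTR peak was -21.6 in CCI and -43.6 in sham, so the list with the higher ratio had the weaker statistic.

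*Efna2*, a lipid-anchored ephrin, had 2 neighbouring 3′-UTR peaks that went opposite ways, at 75.1 and 31.5 (log2 ratio 1.25) and at 9.13 and 14.7 (-0.69). A 3′-UTR pair of *Efnb1* read 9.1 and 19.0 (-1.06). Both pairs of *Efna3*, at its start printed above with 14.6 and 24.4 and in its 3′-UTR with 43.9 and 61.0, were lower in CCI.

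Slits and netrins are the secreted ligands of the midline. The 8 pairs of the Slits had a median log2 ratio of 0.2, and 1 passed 2-fold, in the 5′-UTR of *Slit1* at 16.2 and 7.89. *Slit2*, with the most peaks of the 3, had 4 pairs of low enrichment between 2.82 and 5.47 in both lists. The netrins had 3 pairs, all lower in CCI. In *Ntn1*, the floor plate attractant, the 3′-UTR pair read 4.09 and 10.1 (-1.3) and the 5′-UTR pair 10.7 and 23.2 (-1.12), both past 2-fold. The 5′-UTR peaks were 180 bp long in CCI and 360 bp in sham and shared 41.9% of the longer, so they cover different stretches. *Ntn4*, a basement membrane netrin, read 11.1 and 14.9.

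Among the receptors, the 37 plexin pairs had a median log2 ratio of 0.1 and a median fold enrichment below that of the semaphorins, with 3.88 in CCI and 4.24 in sham over all plexin peaks against 10.4 and 10.6 over all semaphorin peaks. *Plxna2* was higher in CCI in 8 of its 9 pairs. Its strongest, an exonic pair at chr1:194618608-194618877, read 40.7 and 18.3 (1.15), and the 5 pairs of its 3′-UTR lay between 0.23 and 0.8. The strongest plexin pair was in the 5′-UTR of *Plxna1*, at 48.5 and 56.9, where another RefSeq gene, *Gm40415*, overlaps.

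*Plxnd1*, the plexin of endothelial cells for *Sema3e*, had the plexin pair with the largest fall, at 12 and 30.2 in its 3′-UTR (-1.33). The CCI peak there was 61 bp long and the sham peak 360 bp, so the 2 values cover different stretches. All 3 pairs of *Plxnb3* were lower in CCI, by -0.13 to -0.55. None of them came near 2-fold.

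The neuropilins, which bind class 3 semaphorins and vascular endothelial growth factor, were the family with all pairs higher in CCI, 7 of 7, with a median log2 ratio of 0.49. *Nrp2* had 6 of them, which read, in transcript order, 4.59 and 3.02, 18.1 and 11.3, 6.4 and 5.5, 5.73 and 3.04, 15.3 and 12.7, and 3.15 and 2.55 in CCI and sham. *Nrp1* had 1, at 21.4 and 15.2. None reached 2-fold. The 6 pairs of *Nrp2* share 1 transcript and 1 input level per group, so they are not 6 independent readings of a difference.

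**Figure D4:**
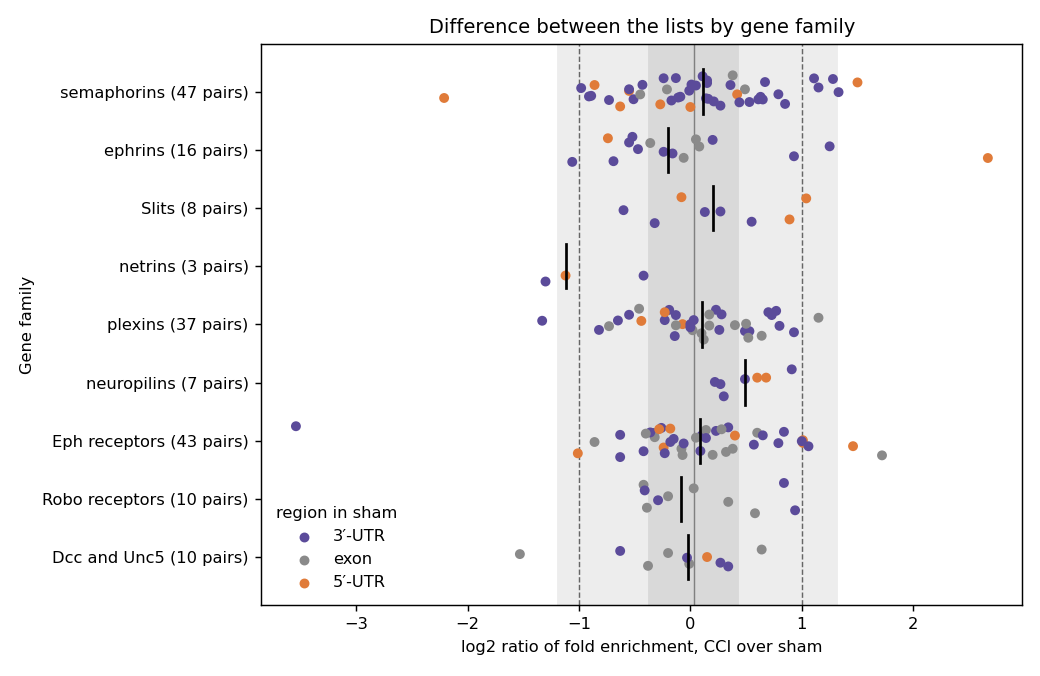
Log2 ratio of fold enrichment, CCI over sham (horizontal axis), of the 181 pairs by gene family (vertical axis), coloured by transcript region; black bars are family medians, grey bands hold the middle 50% and 90% of all 27380 pairs and dashed lines mark 2-fold. The neuropilin points all lie right of 0 and the netrin points left of it, and most points of every other family lie within the grey bands.

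The Eph receptors had 43 pairs with a median log2 ratio of 0.09, 20 lower and 23 higher. They held the largest fall of all the genes. In the 3′-UTR of *Ephb6*, an Eph receptor with an inactive kinase, the pair at chr6:41620210-41620509 had the same borders in both lists and ended at the annotated end of the gene. Its fold enrichment was 55.3 in CCI and 644 in sham, a log2 ratio of -3.54, at percentile 0.0913 of all pairs. Both calls were strong, with a log10 false discovery rate of -186 in CCI and -275 in sham. The other 3 pairs of *Ephb6* were lower in CCI as well, at 9.74 and 11.8, at 5.83 and 10.6 and at 1.34 and 1.57.

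The strongest pair of all the genes was in the 3′-UTR of *Epha5*, at 569 in CCI and 680 in sham (-0.26). All 5 pairs of *Epha5* were lower in CCI, but by 0.06 to 0.32, so its peaks stood near equality where the end of *Ephb6* did not.

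The higher pairs were found in several Eph receptors. At the start of *Ephb1* a spliced peak at chr9:102350592-102354694, with the same borders in both lists, read 53.9 and 19.6 (1.46), and a second peak over the same start read 39.8 and 30.2 (0.4). The 6 other pairs of *Ephb1* ranged from -0.4 to 0.65. In *Epha10* the pair at chr4:124886927-124894784 read 13.0 and 3.95 (1.72). That CCI peak carries the name *1700125G02Rik*, a gene that overlaps *Epha10*, in the deposited list and the sham peak the name *Epha10*, so which transcript holds it is uncertain. A 3′-UTR pair of *Ephb3* read 114 and 54.6 (1.06), while the peak at its start, printed above, read 21.6 and 24.4. Pairs that just passed 2-fold were those in the 5′-UTR of *Epha10* (7.04 and 3.49) and *Epha2* (10.9 and 5.42) and in the 3′-UTR of *Epha7* (35.7 and 17.8), at log2 ratios of 1.01, 1.01 and 1.0. All 3 fell short of 2-fold after centring on the median of all pairs, at 0.99, 0.98 and 0.98, and the *Epha2* peaks shared 33.7% of the longer. *Ephb4*, the receptor of venous endothelium, read 4.9 and 9.88 in its 5′-UTR (-1.01). *Epha4*, a receptor for both ephrin classes, had 3′-UTR pairs of opposite direction at 5.81 and 3.37 and at 7.16 and 11.1. The peaks at 5.81 and 3.37 were 1109 bp long in CCI and 390 bp in sham and shared 35.2% of the longer, so they cover different stretches.

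The Robo receptors and the netrin receptors held 1 pair past 2-fold between them. The 10 pairs of the Robo receptors had a median log2 ratio of -0.09 and none passed 2-fold. *Robo1* had 5 pairs, all of low enrichment, between 2.75 and 4.43 in both lists, and *Robo4*, the endothelial member, had the strongest, at 34.2 and 45.3. Of the 10 pairs of Dcc and the Unc5 receptors, 1 passed 2-fold, in exon 27 of 29 of *Dcc*, the attractive netrin receptor, at 4.98 and 14.4 (-1.53). The strongest pairs were in the 3′-UTR of *Unc5c*, at 41.3 and 32.7, and at the start of *Unc5b*, printed above, at 37.9 and 34.2.

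Peaks along the same transcript often lay on both sides of equality, as they did elsewhere. Of the 47 genes with at least 2 pairs, 32 had pairs in both directions (68.1%), against 66.8% of all 6910 such genes, 7 had all of them lower in CCI and 8 had all of them higher. Counting only pairs that differed by at least 0.1 on the log2 scale, the shares were 61.4% and 65.0%. The 7 genes were *Epha5*, *Ephb6*, *Plxnb3*, *Ntn1*, *Efna3*, *Efnb1* and *Ephb4*. In *Nrp2* the log2 ratios ran from 0.22 to 0.91 and in *Epha5* from -0.32 to -0.06, whereas *Plxna2* spread from -0.07 to 1.15 and in *Ephb6* and *Efnb3* 1 end of the transcript stood far from the rest.

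**Figure D5:**
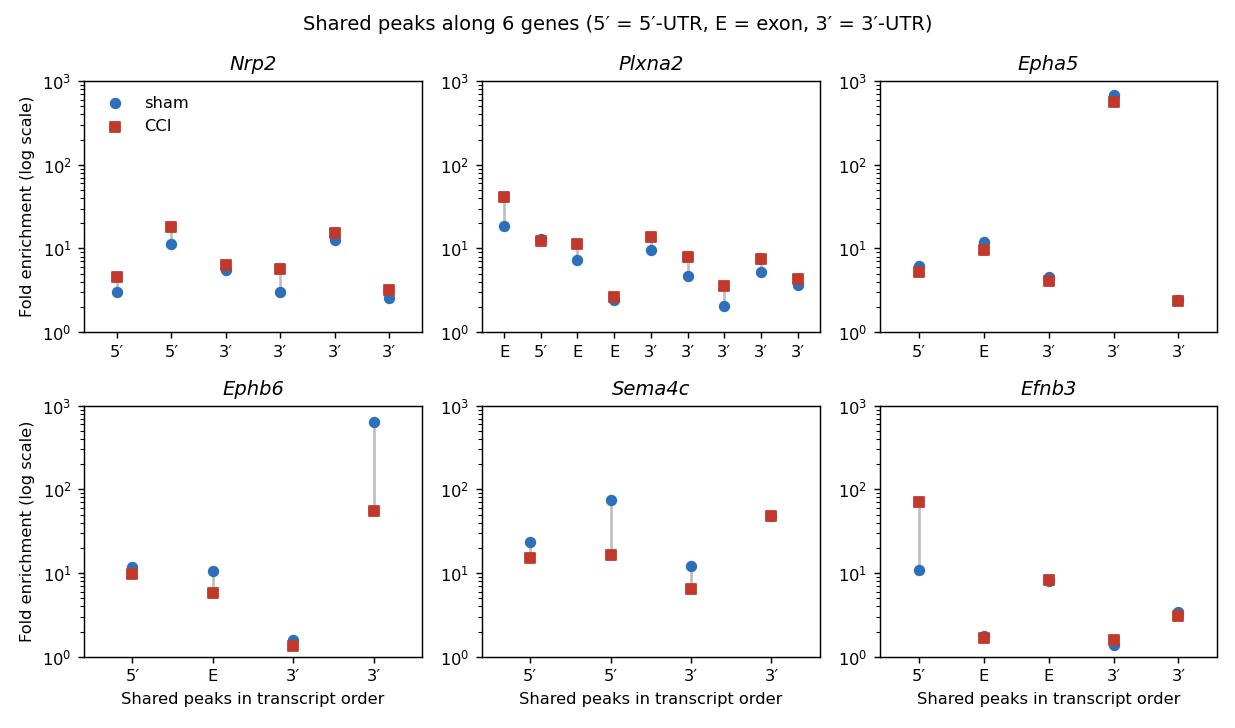
Fold enrichment (vertical axes, log scale) in sham (circles) and CCI (squares) of the paired peaks of 6 genes in transcript order (horizontal axes), each marked with its region. The squares lie above the circles along *Nrp2*, while in *Ephb6* the last peak (55.3 against 644) and in *Efnb3* the first (69.8 against 11.0) stand apart from the other peaks of the gene.

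The authors' table of regions that differed between CCI and sham held 29 regions in 22 of the axon guidance genes, of 4812 regions in 3436 genes. By gene this was 34.4% (23.9 to 46.6%) against 25.3% of all genes with a peak. By pair it was 28 of 181 (15.5%, 10.9 to 21.4%) against 15.8% of all pairs. Both background shares lay within the intervals. Of the 29 regions 23 (79.3%, 61.6 to 90.2%) were in the 3′-UTR, against 55.1% of all regions of that table, and 13 were in semaphorins. Calculated from the peak lists, the ratio of the best pair was lower in CCI in 16 of the 29, higher in 11 and equal in 1. The remaining region, in *Sema6c*, had no pair. This split was not set beside the same split over all 4812 regions. *Sema4c* had 3 regions. *Epha4* and *Sema6a* had 2 each with ratios of opposite sign. They were 0.79 and -0.63 in *Epha4* and 0.67 and -0.89 in *Sema6a*, a class 6 semaphorin of plexin A receptors. The *Epha4* ratio of 0.79 came from peaks that shared 35.2% of the longer. In *Plxna4* the best pair of a listed region read 3.88 in both lists, from a CCI peak of 510 bp and a sham peak of 180 bp that shared 35.3% of the longer. Of the 23 pairs past 2-fold, 6 lay in this table and 17 did not. The same count was not made over all pairs past 2-fold, so it cannot be read as particular to these genes.

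The 83 genes that act beside or below these receptors, such as co-receptors, GTPase regulators and actin-binding proteins, had a peak in either list in 77 cases and in both in 73. Their 229 pairs had a median log2 ratio of 0.0, with 18 pairs at least 2-fold higher in CCI (7.86%) and 19 lower (8.3%), near the 8.59% and 7.25% of all pairs. *Rac1*, the small GTPase of the growth cone, had an exonic pair at 20.3 and 2.58 (2.98), and *Limk1*, the kinase of cofilin, a 5′-UTR pair at 46.9 and 7.3 (2.68). *Sdc3*, a heparan sulphate proteoglycan, had a 5′-UTR pair at 15.5 and 136 (-3.13) and *Farp1*, a guanine nucleotide exchange factor, one at 2.59 and 16.3 (-2.65). These 4 pairs were picked as the largest in each direction, and all but that of *Rac1* were in the 5′-UTR. The next in each direction, in *Sh3bp1* (2.65) and *Cntn2* (-2.02), were in the 3′-UTR.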

How the data were processed

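The authors deposited 3 tables, the peaks of CCI, the peaks of sham and the regions that differed. Fold enrichment is the authors' ratio of IP over input, and the deposited log10 p-value and log10 false discovery rate were handled as a score. Per the labels, the submitters' processing notes name GRCm38, fastp, HISAT2, HOMER and ChIPseeker, whereas the paper names Cutadapt, bowtie, MACS2 and ChIPseeker, and the columns are named as in exomePeak output. The scaling behind the fold enrichment is not given in the sources used here. The authors' log2 fold changes and p-values between CCI and sham in the table of regions were not used.

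Members were rows whose gene name matched a pattern of family symbols. The members and the lists of other genes were chosen with earlier results of these data known. Peaks were compared by exonic blocks without strand, which the tables give for genes and not for peaks, and mutual best overlaps (shared over joined bases, at least 1 bp) were paired. This step was tested on simulated data. A pair at or past 2-fold was counted. Shares carry 95% Wilson intervals. Named genes were, per family, that with the most peaks and that with the strongest pair, up to 10 pairs past 2-fold in each direction, genes with a peak in 1 list, and up to 10 genes of the authors' table by regions. Others were chosen after their values were seen. RefSeq GRCm38.p6 tables gave symbols and start sequences. Alternatives changed the fold, overlap, filters, centring and unit of counting. The computation ran in Python 3.11.15 with pandas 2.3.3 and numpy 2.4.6, the intervals came from scipy 1.17.1, and matplotlib 3.10.9 drew the plots.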

Additional observations from a re-analysis of the deposited data

How the results depend on the processing

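Of 50 counts, shares and medians recomputed under an alternative, 42 stayed within 1.5 times the reported count, the 95% interval of the reported share or 0.1 of the reported log2 median, and none reversed. Where a partner had to share at least 50% of both peaks, the share of peaks with a partner was 74.8% in CCI and 74.9% in sham, in place of 83.9% and 86.3%. The 2-fold pairs of *Epha2*, *Plxnd1* and the 5′-UTR of *Ntn1* were then lost. The share of all peaks with a partner was not recomputed under this rule. With 1.5-fold required, 39 of the 181 pairs were higher and 24 lower in CCI, against 18.8% and 16.4% of all pairs. With a false discovery rate below 1e-10 in both lists, a choice made after the data were seen, 112 pairs were left, of which 12 were at least 2-fold higher in CCI (10.7%, against 6.86% of all pairs kept) and 4 lower (3.57%, against 5.37%). With each gene and region counted once, 5′-UTR peaks made up 22.5% (CCI) and 22.3% (sham), and 3′-UTR peaks 51.2% in sham. These shifts follow from the stricter overlap, the looser fold, the fewer pairs kept and the other unit of counting. Of the 23 pairs past 2-fold, 20 were also past it after centring on the median of all pairs, which shifts each by 0.03, and the 5′-UTR pairs of *Epha10* and *Epha2* and the *Epha7* pair were not. No paired analysis was possible because the groups share fewer than 2 replicate numbers, with 1 IP and 1 input library each. Neither the spread between mice nor the counting error of a fold enrichment is known from these tables.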

Other observations

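The names in the peak lists leave a few peaks of these genes in doubt. In each list 3 peaks named for *Efna3*, *Epha10* and *Ephb1* were annotated to an exon of another gene ID, and 2 peaks annotated to an exon of *Sema3e* or *Ntn4* carried another gene name and were not counted. The peak in *Sema3e*, the ligand of plexin D1, is named *Gm43523* and read 39.9 in CCI and 64.3 in sham, far above the pair counted for *Sema3e*, at 2.61 and 3.82. The peak in *Ntn4* is named *Gm8580* and read 7.16 and 4.65. In each list, 6 of the peaks overlapped another RefSeq gene.

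Some weak peaks of unrelated genes held the same pair of values. In CCI alone, peaks of *Efna3* and *Sema4d* both had a fold enrichment of 11.5 and a log10 false discovery rate of -2.33. In sham alone, peaks of *Plxna4* and *Sema3f* both had 13.9 and -2.42.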
